A study of Mus musculus with 13 samples.

Results

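RB knockout livers were compared with wild type livers after diethylnitrosamine (DEN), a liver carcinogen that cytochromes P450 turn into a DNA-alkylating agent. The arrays were taken by their group labels, which gave 2 knockout (KO) and 2 wild type (WT DEN) arrays, 4 of the 13 in the series. KO mice carried floxed Rb1, with loxP sites around an exon of the gene, and Cre recombinase under the albumin promoter. WT DEN mice carried floxed Rb1 without Cre. All 4 mice were 14 days old and had received DEN at 20 mg/kg by intraperitoneal injection 24 h before frozen liver was taken for total RNA. The remaining arrays were heterozygous livers with 1 floxed and 1 functional allele plus Cre after DEN (HET, 2 arrays), livers with the N750F allele of Rb1 after DEN (N750F, 5), and floxed livers without Cre from mice given saline (WT untreated, 2). The albumin promoter drives Cre in hepatocytes, so other cells of a KO liver may keep Rb1, and the extent of deletion at this age was not checked here. The Cre-free WT group differs from KO in Cre as well as in Rb1. The design text calls the saline controls littermates, and no litter is given for any array, so p-values measure only the spread between these arrays, whose small number limits the precision. No untreated KO array was analysed here, so a difference present before DEN cannot be told apart from a different response to it.

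RB, the product of Rb1, binds activating E2F transcription factors and holds genes of DNA replication silent until cyclin-dependent kinases release it. Its relatives p107 (Rbl1) and p130 (Rbl2) join E2F4 and the MuvB proteins in the DREAM complex, which also holds down genes of the G2 phase and mitosis through a promoter element called the cell cycle genes homology region (CHR). Hepatocytes of a mouse of this age are still leaving the proliferative state of the growing liver.

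Levels are given as log2(quantile-normalized intensity + 16), and differences are KO minus WT DEN in log2 units with their standard error (SE) from 1 limma model over all 13 arrays. The model holds array batch as a term, estimated from every group that spans both batches, so a fitted difference need not equal the difference of the printed levels. The KO arrays are numbered 1 and 2 and the WT DEN arrays 3 and 4, as labelled. KO arrays 1 and 2 and WT DEN array 3 belong to array batch 1 by the run in the labels' raw array names, and WT DEN array 4 to batch 2. The median deposited intensity was 77.1 and 76.9 in KO arrays 1 and 2, against 83.0 and 55.3 in WT DEN arrays 3 and 4. WT DEN array 4 had the lowest median correlation with the other arrays (0.879), and the 2 WT DEN arrays correlated at 0.891, against 0.927 for the 2 KO arrays. Xist, the RNA of the inactive X chromosome, was at 5.64 and 5.66 in KO arrays 1 and 2, against 12.45 and 12.34 in WT DEN arrays 3 and 4. The mean of the Y-linked genes was 9.45 and 9.05 in KO, against 4.46 and 4.61 in WT DEN. Both KO mice were therefore male and both WT DEN mice female, and sex, Cre and Rb1 genotype cannot be told apart in these 4 arrays. The Y-linked genes Eif2s3y, Uty and Kdm5d read 4.13 to 4.94 in female arrays, which shows where a transcript that is not there lies on this scale.

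KO array 2 also held transcripts of striated muscle and of squamous epithelium, tissues outside the liver. Of 46 measured skeletal muscle markers, 26 were highest in it among the 13 arrays (9.6% of all genes tested were), 13 of them by more than 1 log2 unit. Their mean level was 7.92 in KO array 2 and 6.17 in KO array 1, and it ran from 6.10 to 6.26 over the 12 arrays other than KO array 2. Of 37 squamous epithelium genes, a list added after values had been seen, 15 were highest there, 6 of them by more than 1 log2 unit, with a mean of 7.30 against 6.26 to 6.58 elsewhere. Titin (Ttn), the giant spring protein of the sarcomere, was at 13.59 in KO array 2 and at 5.35 in KO array 1. Keratin 4 (Krt4), a structural protein of squamous linings, was at 11.80 in KO array 2 and at most at 4.90 in any other array. The secreted proteins that define hepatocytes had a mean of 11.36 and 11.34 in KO arrays 1 and 2, against 11.34 and 11.14 in WT DEN arrays 3 and 4. Levels and list medians are therefore given mostly for each KO array apart, and the part that the foreign transcripts play in the results was not tested. Whether a lower level in whole liver means fewer cells of a type or less RNA per cell cannot be told apart either.

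**Figure D1:**
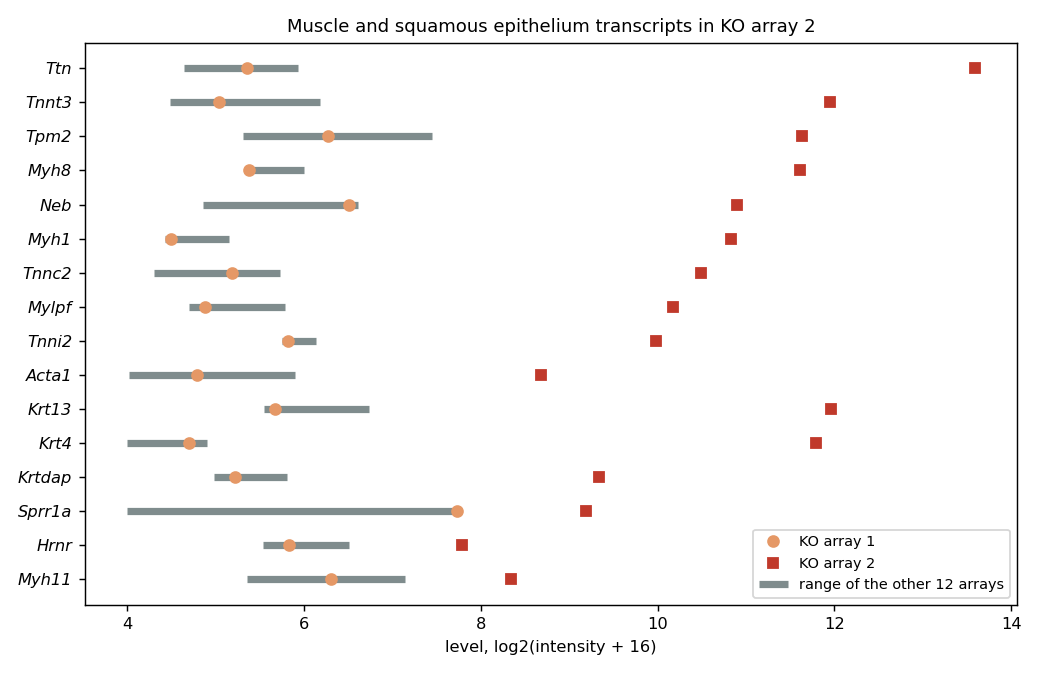
Levels of 16 muscle and squamous epithelium transcripts, in log2(intensity + 16) on the horizontal axis: circles for KO array 1, squares for KO array 2, and grey bars for the range over the 12 arrays other than KO array 2. KO array 2 lies to the right of the bar for each transcript drawn, with Ttn at 13.59.

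Rb1, the targeted gene, was at 7.92 and 6.57 in KO arrays 1 and 2, against 8.04 and 8.01 in WT DEN. Both KO arrays lay below both WT DEN arrays, array 1 by little and array 2 by more than 1 log2 unit. The difference was -0.87 ± 0.37 (SE) and did not pass limma's test (adjusted p = 0.544). The probe set's place relative to the floxed exon was not known here, so this level does not check the knockout. Rb1 read 7.27 and 7.15 in the WT untreated arrays, between the 2 KO arrays.

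Of 14953 genes tested, 7 were higher in KO livers (0.0468%) and 0 were lower (0%) at an adjusted p of 0.05, by limma with Benjamini-Hochberg adjustment. At an unadjusted p of 0.05, 754 were higher (5.04%) and 524 lower (3.5%). Both KO arrays lay above both WT DEN arrays for 2457 genes (16.4%) and below them for 2162 (14.5%). The 7 genes were Akr1c18, a steroid dehydrogenase, the mitotic genes Cenpf, Pttg1 and Ccnb2, the X-linked genes Bex3 and Tceal9, and the antiproliferative gene Btg1.

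Akr1c18, the 20-alpha-hydroxysteroid dehydrogenase that inactivates progesterone, was at 10.51 and 10.88 in KO arrays 1 and 2, against 5.93 and 4.84 in WT DEN arrays 3 and 4. It rose by 5.09 ± 0.59 (SE, adjusted p = 0.0102), and the lower of the WT DEN values lay where absent transcripts read. Cenpf, a kinetochore protein of mitosis, was at 9.48 and 8.06 in KO, against 6.33 and 5.15 in WT DEN, a rise of 3.11 ± 0.48 (adjusted p = 0.0343). Pttg1 encodes securin, which keeps sister chromatids together until anaphase. It was at 8.06 and 7.89 in KO, against 5.96 and 5.82 in WT DEN, and rose by 2.36 ± 0.34 (adjusted p = 0.0276). Ccnb2, cyclin B2 of the mitotic kinase, was at 9.04 and 8.28 in KO, against 6.66 and 6.78 in WT DEN, and rose by 2.02 ± 0.31 (adjusted p = 0.033). In these 4 genes both KO arrays stood well clear of both WT DEN arrays, and the mitotic genes Cenpf and Ccnb2 were higher in KO array 1 than in array 2.

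Bex3, a small adaptor protein of the brain-expressed X-linked family, was at 10.56 and 9.96 in KO, against 8.07 and 7.43 in WT DEN, a rise of 2.63 ± 0.38 (SE, adjusted p = 0.0276). Tceal9, an X-linked relative of transcription elongation factor A, was at 10.12 and 10.13 in KO, against 8.44 and 8.90 in WT DEN, and rose by 1.87 ± 0.26 (adjusted p = 0.0276). The promoters of Bex3 and Tceal9 lie near each other on the X chromosome, in RefSeq windows that begin at 136270073 and 136244900 (GRCm38.p6). Btg1, which binds the deadenylase that shortens mRNA tails and slows proliferation, was at 9.20 and 9.66 in KO, against 7.18 and 7.09 in WT DEN, and rose by 2.11 ± 0.32 (adjusted p = 0.033). The 2 KO arrays differed little for Tceal9, and for Btg1 the order of the KO arrays was the reverse of that of the mitotic genes.

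**Figure D2:**
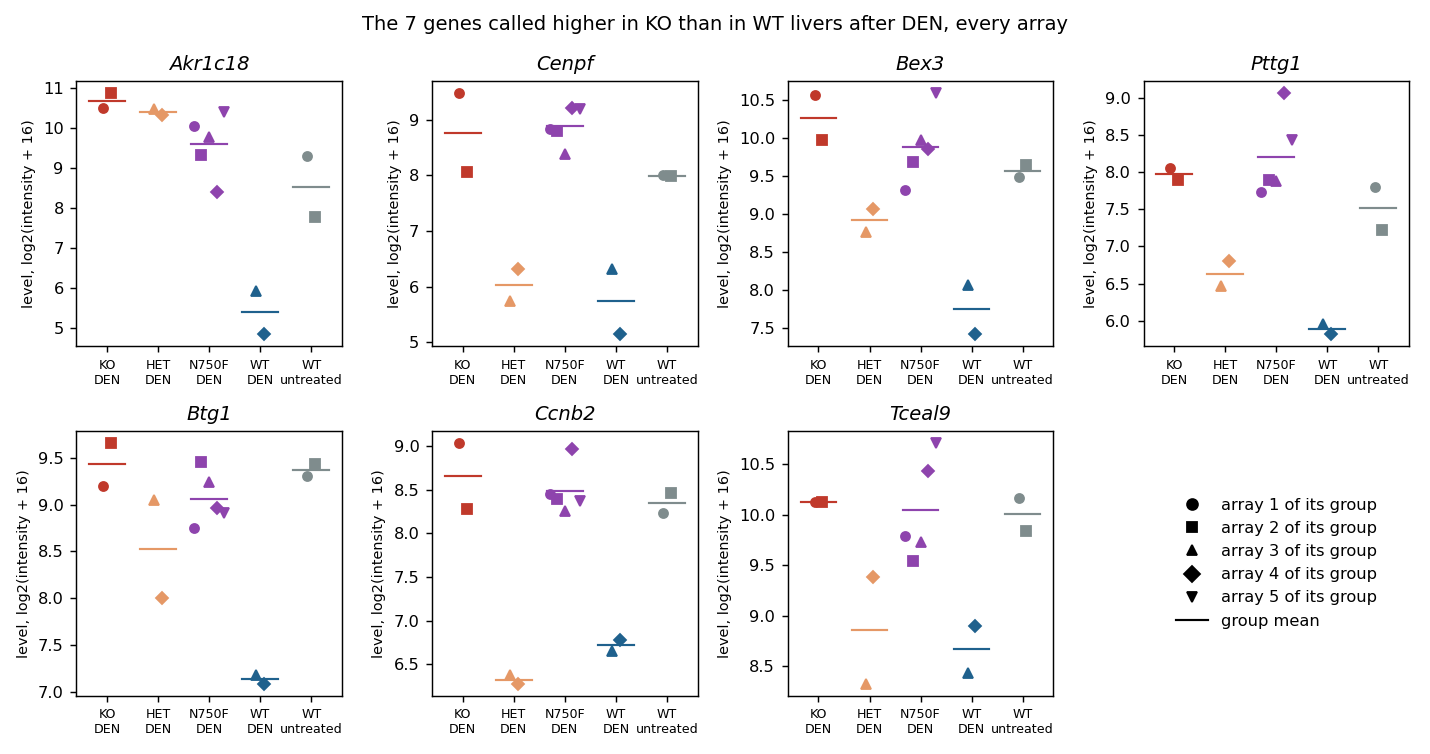
Levels of the 7 genes called higher in KO livers, in log2(intensity + 16) on the vertical axis, for all 13 arrays in 5 groups: a symbol per array and a bar for the group mean. In each panel both KO arrays lie above both WT DEN arrays, and the N750F and WT untreated arrays lie above WT DEN as well.

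The other arrays place these 7 genes in a wider frame. All 5 N750F arrays and both WT untreated arrays lay above both WT DEN arrays for Akr1c18, Cenpf, Bex3, Pttg1, Btg1, Ccnb2 and Tceal9. For each of the 7, all 5 female arrays outside the WT DEN group were above both WT DEN arrays, as were 2 to 4 of the 4 male arrays outside the KO group. KO minus WT untreated ran from 0.06 (Btg1) to 2.16 (Akr1c18), and none of the 7 passed there (limma adjusted p from 0.217 for Akr1c18 to 0.977 for Btg1), while 12 genes were higher (0.0803%) and 1 was lower (0.00669%). WT DEN minus WT untreated, which shares the WT DEN arrays with the main comparison, ran from -1.71 for Ccnb2 to -2.93 for Akr1c18, and all 7 passed (adjusted p 0.0109 for Tceal9 to 0.0439 for Cenpf), among 58 genes lower (0.388%) and 45 higher (0.301%) in WT DEN. HET livers also carried Cre, and their Y-linked means of 9.41 and 9.34 were those of males, although Xist read 6.16 in HET array 3 and 8.05 in HET array 4. KO and HET livers differed for Ccnb2 (2.42 ± 0.31, adjusted p = 0.00689), Tceal9 (1.68 ± 0.26, 0.0184) and Cenpf (2.81 ± 0.48, 0.0363), among 33 genes higher (0.221%) and 12 lower (0.0803%) in KO. Akr1c18 was at 10.47 and 10.32 in HET livers, a KO minus HET difference of 0.07 ± 0.59 that did not pass (adjusted p = 0.984).

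The calls depended on single arrays and on whether the Y-linked level entered the model. Without WT DEN array 4 none of the 7 passed (adjusted p 0.0937 to 0.196) and 0 genes were called in all by limma (686 at an unadjusted p of 0.05). With batch 1 arrays alone, where WT DEN had array 3 only, Akr1c18 was called at 4.77 (adjusted p = 0.0464) and the other 6 kept differences of 1.69 to 2.44 without passing. With the mean Y-linked level as a covariate 0 genes were called by limma (985 at an unadjusted p of 0.05), and the 7 differences were 1.69 to 4.32. Without WT DEN array 3 the count became 73, without KO array 1 it was 48, and without KO array 2 it was 92. Leaving out N750F array 2 or 3 gave 1 call each, and leaving out N750F array 5 gave 2 (the other groups enter both the estimate of the spread and the batch term).

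Apart from sex chromosome genes and a list of Bex, Tceal and Btg genes added later, genes of the G2 phase and mitosis had the largest median difference of the lists examined. Of 64 tested members, 3 rose (Cenpf, Pttg1 and Ccnb2, above), against 0.0468% of all genes, and the rest did not pass. The median difference was 1.45, against -0.01 over all genes. Both KO arrays lay above both WT DEN arrays in 47 of the 64 (16.4% of all genes), and below them in 0 (14.5%). Cdc20, an activator of the anaphase-promoting complex, was at 7.36 and 6.61 in KO, against 5.30 and 5.30 in WT DEN, a difference of 1.83 ± 0.33 that did not pass (adjusted p = 0.0719). The spindle protein Nusap1 was at 9.09 and 7.54 in KO, against 6.08 and 6.51 in WT DEN (2.30 ± 0.43, adjusted p = 0.0822). The mitotic kinase Plk1 was at 9.12 and 7.83 in KO, against 6.42 and 6.87 in WT DEN (2.06 ± 0.41, adjusted p = 0.118). For these 3 genes, taken for their small p, the groups did not overlap, and KO array 1 was the higher of the 2 in each.

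The 2 KO arrays differed from each other over this list. The mean of the tested G2/M members was 8.46 and 6.95 in KO arrays 1 and 2, against 6.38 and 6.21 in WT DEN. It was 6.08 and 5.94 in HET, 7.94 to 8.26 in N750F and 7.38 and 7.21 in WT untreated livers. KO array 1 thus lay above the N750F range, while KO array 2 lay below both untreated arrays and above both WT DEN arrays. KO array 1 exceeded array 2 in 62 of the 64 members (48.8% of all genes), with a median difference of -1.50 (array 2 minus array 1), against -0.765 over the E2F targets below. It was the highest of the 13 arrays in 30 members (5.56% of all genes). KO array 1 lay above both WT DEN arrays in 63 members (32.5% of all genes), and KO array 2 in 47 (33.4%). Fitted with KO array 1 alone, the list median against WT DEN was 2.30 and 38 members rose (0.568% of all genes were called higher there). With KO array 2 alone the median was 0.62 and 1 member, Pttg1, rose (0.174% of all genes). Within batch 1, against WT DEN array 3 only, the median was 2.13 with KO array 1 and 0.55 with KO array 2. In such fits the lone KO array is assumed to vary like the arrays of the other groups.

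**Figure D3:**
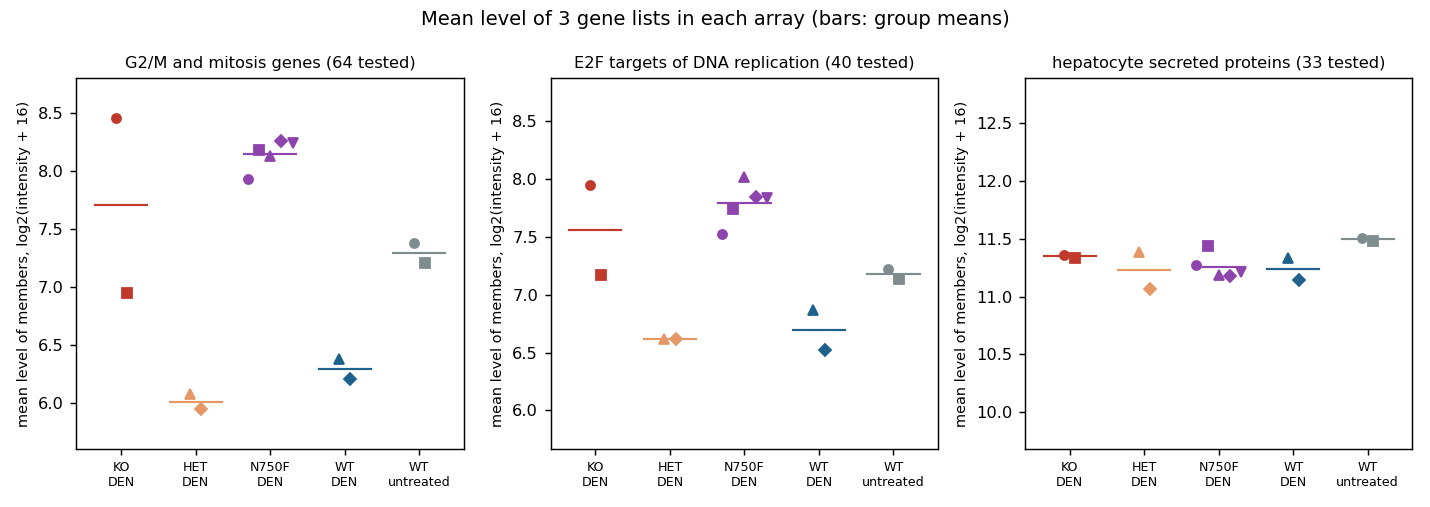
Mean level of the tested members of 3 gene lists in each array, in log2(intensity + 16) on the vertical axis, with a symbol per array and a bar per group mean. KO arrays 1 and 2 lie apart for G2/M genes (8.46 and 6.95) and for E2F targets (7.95 and 7.17), and together for secreted hepatocyte proteins (11.36 and 11.34).

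Single mitotic genes showed the gap between the KO arrays most plainly. Birc5, survivin of the chromosomal passenger complex, was at 9.15 and 5.67 in KO arrays 1 and 2, against 5.32 and 5.38 in WT DEN. Ccna2, cyclin A2, was at 10.90 and 7.58 in KO, against 7.83 and 7.39 in WT DEN, so that array 2 lay between the WT DEN arrays. Bub1, a spindle checkpoint kinase, was at 8.21 and 5.09 in KO, against 5.43 and 5.67 in WT DEN, with array 2 below both. None of the 3 passed with both arrays (adjusted p = 0.494, 0.577 and 0.669), and each rose with KO array 1 alone, by 3.73 ± 0.40, 3.21 ± 0.30 and 2.74 ± 0.36 (SE, limma adjusted p = 0.00161, 0.00161 and 0.00343). Cenpn, Nuf2 and Kntc1, which build or check the kinetochore, and Rrm2, a subunit of ribonucleotide reductase, were likewise among the 79 genes (0.528%) at least 2 log2 units lower in array 2 than in array 1, against 29 (0.194%) as much higher. KO array 2 is also the array with the muscle and squamous transcripts, whose part in this gap was not tested.

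The promoters of the mitotic genes are shown because the CHR element and the CCAAT box are the sequences through which such genes are known to be held down in resting cells and driven in dividing ones. Windows from 250 bases before to 50 after the start (RefSeq, GRCm38.p6) were searched on both strands for the CHR, TTTGAA, and the CCAAT box, CCAAT. Windows were found for 52 of the 64 tested G2/M members. Of these 52, 35 held a CHR (67.3%, against 20.2% of 27025 genes), 35 a CCAAT box (67.3%, against 41.1%) and 28 both (53.8%, against 7.97%). The stretches below run from 180 bases before to 10 after the start, 5′ to 3′ on the gene's strand, with matches to either motif in capitals.
Ccnb2, chr9:70421545-70421734, minus strand: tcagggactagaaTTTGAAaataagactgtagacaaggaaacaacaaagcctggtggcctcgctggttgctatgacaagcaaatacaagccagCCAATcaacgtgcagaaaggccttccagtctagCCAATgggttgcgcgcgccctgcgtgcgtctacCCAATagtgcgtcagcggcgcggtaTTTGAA
Cenpf, chr1:189688077-189688266, minus strand: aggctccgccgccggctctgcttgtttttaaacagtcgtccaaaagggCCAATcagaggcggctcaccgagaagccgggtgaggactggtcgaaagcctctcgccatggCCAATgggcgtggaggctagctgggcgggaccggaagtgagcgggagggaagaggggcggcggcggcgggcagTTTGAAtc
Cdc20, chr4:118437334-118437523, minus strand: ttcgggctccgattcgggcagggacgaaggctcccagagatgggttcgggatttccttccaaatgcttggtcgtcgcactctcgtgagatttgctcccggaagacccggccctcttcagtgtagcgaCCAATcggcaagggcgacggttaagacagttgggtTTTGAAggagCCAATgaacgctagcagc
Pttg1, chr11:43425972-43426161, minus strand: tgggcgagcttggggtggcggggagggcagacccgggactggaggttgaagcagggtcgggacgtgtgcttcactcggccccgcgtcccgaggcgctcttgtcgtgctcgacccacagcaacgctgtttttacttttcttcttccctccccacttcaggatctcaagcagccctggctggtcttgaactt
Akr1c18, chr13:4150637-4150826, minus strand: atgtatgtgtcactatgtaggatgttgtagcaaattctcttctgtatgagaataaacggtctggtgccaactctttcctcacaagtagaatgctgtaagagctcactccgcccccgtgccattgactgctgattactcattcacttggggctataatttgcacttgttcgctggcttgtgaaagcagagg
Ccnb2 and Cenpf, called higher, and Cdc20, close to the threshold, hold both motifs, with no match overlapping another. The whole 300-base windows of Pttg1 and Akr1c18 hold neither, although both genes were called, which says only that these letters are not in those windows. Among the other called genes, Tceal9 holds both motifs and Bex3 and Btg1 a CCAAT box alone. A match is a description of the sequence and not evidence of binding.

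E2F targets of DNA replication, the genes that RB itself is known to restrain, showed a smaller shift. Of 40 tested members, 0 rose and 0 fell, the median difference was 0.79, and both KO arrays lay above both WT DEN arrays in 27 (16.4% of all genes) and below them in 0 (14.5%). The mean of the tested members was 7.95 and 7.17 in KO, against 6.87 and 6.52 in WT DEN, so both KO means lay above both WT DEN means. That mean was 6.62 and 6.62 in HET, 7.52 to 8.015 in N750F and 7.22 and 7.13 in WT untreated livers. KO array 1 thus lay above both untreated arrays, and KO array 2 between them. Pole2, a subunit of DNA polymerase epsilon, was at 7.58 and 6.63 in KO, against 5.89 and 5.43 in WT DEN (1.57 ± 0.36, adjusted p = 0.186). The maintenance methyltransferase Dnmt1 was at 10.21 and 9.65 in KO, against 8.92 and 8.87 in WT DEN (1.07 ± 0.27, adjusted p = 0.227). Both genes had non-overlapping groups. Prim1, the catalytic primase, was at 10.29 and 9.33 in KO, against 8.65 and 6.96 in WT DEN (1.64 ± 0.45, adjusted p = 0.271). KO array 1 was the higher KO array in all 3 genes. Tipin, Chaf1a and Slbp, which protect the fork, assemble chromatin and process histone mRNA, had differences of 1.02 to 1.32 without passing, and a second Slbp probe set differed by 0.13. With KO array 1 alone the list median was 1.18, and with array 2 alone it was 0.52. An E2F site, TTTNGCGC, stood in 9 of 32 members with a promoter window (28.1%, against 1.57% of 27025 genes), and TTTCCCGC in 6 (18.8%, against 1.24%). The members Cdc6, Cdt1, Mcm5 and Orc1, which license replication origins, and Mcm10 were among 10 removed as dim.

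The RB family and its partners had a small median difference. Of 29 tested members, 0 rose and 0 fell, with a median of 0.27, 7 with both KO arrays above both WT DEN arrays (16.4% of all genes) and 4 below (14.5%). The median was 0.27 with KO array 1 alone and 0.12 with KO array 2 alone. Rbl1, which encodes p107 and is itself an E2F target, was at 8.59 and 7.44 in KO, against 7.21 and 6.19 in WT DEN (0.98 ± 0.36, adjusted p = 0.47). Rbl2, which encodes p130, was at 8.14 and 8.09 in KO, against 8.27 and 7.21 in WT DEN (0.29 ± 0.32, adjusted p = 0.84). Only Rbl1 of these 2 had both KO arrays above both WT DEN arrays. Cyclin D2 (Ccnd2), which activates the kinases that release RB from E2F, was at 7.87 and 7.81 in KO, against 6.80 and 6.43 in WT DEN (1.24 ± 0.31, adjusted p = 0.221). All 11 arrays outside the WT DEN group lay above both WT DEN arrays for Ccnd2, with WT untreated livers at 8.12 and 7.81. Cks1b and Cdk2, a cofactor and a kinase of the G1 to S transition, had differences of 0.90 ± 0.25 and 1.18 ± 0.38 without passing, with both KO arrays above both WT DEN arrays. WT untreated livers had 7.85 and 7.13 for Cdk2, against 7.66 and 7.09 in KO. They had 8.94 and 8.74 for Cks1b, below both KO arrays (9.67 and 9.26). The repressor E2f8 was at 7.50 and 4.90 in KO, against 5.64 and 5.69 in WT DEN, so the KO arrays lay on either side of WT DEN. E2f3, E2f4, E2f5, E2f6, E2f7, Tfdp1 and Tfdp2 had differences of -0.11 to 0.63, and E2f1 and E2f2 were removed as dim. Of the MuvB subunits, Lin9, Lin37, Lin52 and Lin54 had differences of 0.08, 0.40, 0.27 and -0.90, and the chromatin protein Rbbp4 one of -0.18.

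**Figure D4:**
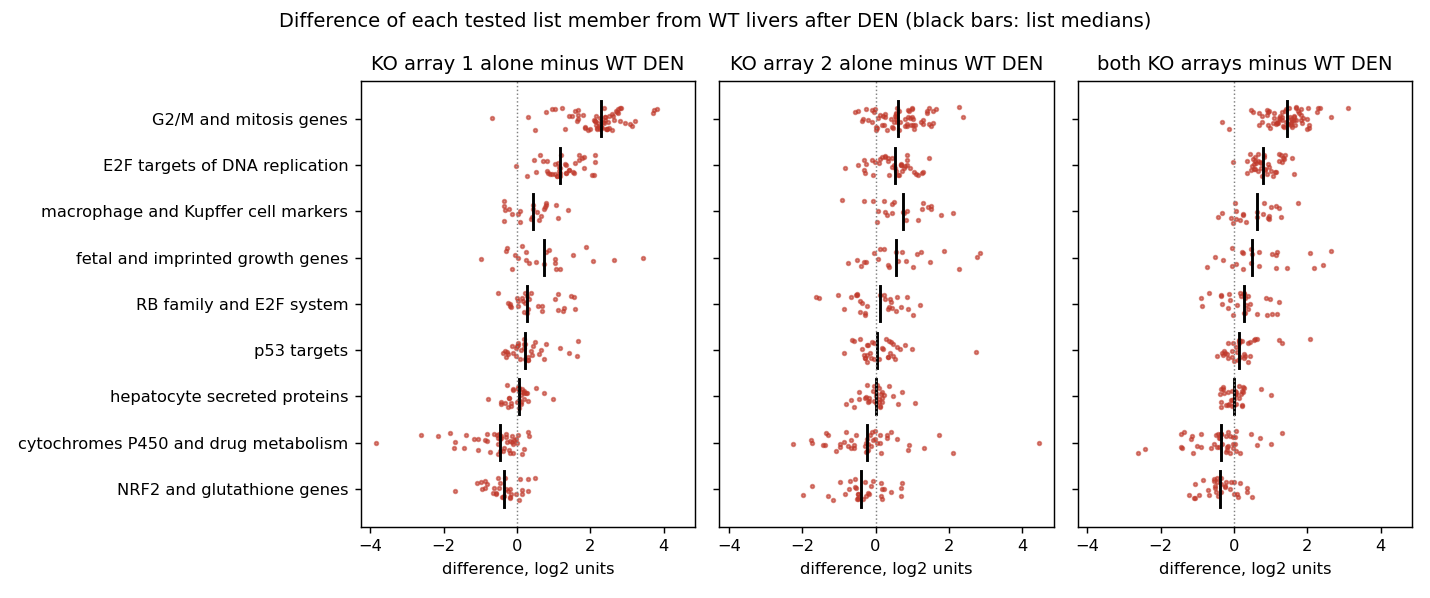
Difference of each tested member of 9 gene lists from WT DEN livers, in log2 units on the horizontal axis, for KO array 1 alone, KO array 2 alone and both KO arrays, with a point per gene and a black bar at the list median. The G2/M median is 2.30 for array 1, 0.62 for array 2 and 1.45 for both, while the P450 and NRF2 medians lie below 0 in all 3 panels.

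Outside the cell cycle, fetal and imprinted growth genes had a median difference of 0.48 over 23 tested members, with 0 called and 13 in which both KO arrays lay above both WT DEN arrays (16.4% of all genes). Igf2, the imprinted fetal growth factor, was at 11.41 and 9.85 in KO, against 8.35 and 8.25 in WT DEN (2.66 ± 0.52, adjusted p = 0.11). Peg3, an imprinted zinc finger gene, was at 8.93 and 9.35 in KO, against 7.45 and 6.39 in WT DEN (2.08 ± 0.41, adjusted p = 0.118). WT untreated livers had 12.49 and 12.71 for Igf2 and 10.06 and 9.63 for Peg3, so both KO arrays lay between WT DEN and untreated livers. With KO array 1 alone Igf2 rose by 3.44 ± 0.51 (adjusted p = 0.00689). The list median was 0.74 with array 1 alone and 0.57 with array 2 alone. The imprinted inhibitor Cdkn1c and the glypican Gpc3 had differences of 1.02 ± 0.30 and 1.15 ± 0.33 without passing. WT untreated livers had 9.33 and 8.95 for Cdkn1c and 8.91 and 8.48 for Gpc3, above both KO arrays.

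A list of Bex, Tceal and Btg genes, put together after values had been seen, held 9 tested members with a median of 2.07. Of these, 3 were called higher (Bex3, Tceal9 and Btg1), against 0.0468% of all genes. The choice of list favoured both values, so neither is a result about these gene families. Bex4 was at 7.58 and 8.29 in KO, against 6.46 and 5.70 in WT DEN, a difference of 2.42 ± 0.54 that did not pass (adjusted p = 0.17). Btg2, a p53 target and close relative of Btg1, was at 9.12 and 10.44 in KO, against 8.23 and 7.08 in WT DEN (2.07 ± 0.50, adjusted p = 0.197). The p53 targets as a whole had a median of 0.13 over 34 tested members, with 0 called, 9 above (16.4% of all genes) and 2 below (14.5%) both WT DEN arrays in both KO arrays.

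No gene was called lower with both KO arrays, and the 15 genes of smallest p whose KO arrays both lay below both WT DEN arrays are given as not passing. Prodh, the mitochondrial proline dehydrogenase, was at 6.06 and 6.33 in KO, against 8.52 and 9.10 in WT DEN (-2.40 ± 0.44, adjusted p = 0.0754). The clock repressor Nr1d2 was at 8.58 and 8.09 in KO, against 9.74 and 10.17 in WT DEN (-1.51 ± 0.27, adjusted p = 0.0719). Per3, another clock gene, was at 7.33 and 7.86 in KO, against 8.89 and 8.77 in WT DEN (-1.50 ± 0.28, adjusted p = 0.0822). In all 3 genes the gap between the groups exceeded the distance within either group, which the rule that chose them favoured. All 5 N750F arrays and both WT untreated arrays also lay below both WT DEN arrays for each of them. N750F minus WT DEN was -2.24 for Prodh, -1.14 for Nr1d2 and -1.11 for Per3, so the lower level was not particular to KO livers.

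Orm1, the acute phase protein orosomucoid, was at 4.68 and 5.87 in KO, against 7.62 and 7.78 in WT DEN (-2.12 ± 0.42, adjusted p = 0.118). Sult1e1, which sulfates and inactivates estrogens, was at 4.94 and 7.37 in KO, against 9.10 and 8.55 in WT DEN (-2.63 ± 0.60, adjusted p = 0.187). For both genes KO array 1 read at the level of absent transcripts and KO array 2 lay above it. HET livers had 8.66 and 8.89 for Orm1 and 9.84 and 10.22 for Sult1e1, while WT untreated livers had 4.97 and 5.86 for Orm1 and 4.43 and 4.77 for Sult1e1. With KO array 1 alone 7 genes fell (0.0468% of all genes): Sult1e1, Orm1, Per3, Rilpl1, Ap4b1, Lypd10 and Gstt3, the last 3 named after their values were seen. KO array 2 lay below both WT DEN arrays for 5 of them (29.1% of all genes). With KO array 2 alone 22 fell (0.147%), among them Timm21, Cyp2d13, Nr1d2, Rgl3 and Ugt2b1, and array 1 lay below both WT DEN arrays for 15 (30.3% of all genes). Both fits share the WT DEN arrays, which favours such agreement, so the shares over all genes are no fair baseline for it. The remaining genes of the 15 lower genes above, Nifk, Prelid3b, Slc13a1, Fzd4, Akr1c14 and Phxr4 among them, had differences from -1.17 (Fzd4) to -1.79 (Slc13a1). Arntl, the clock activator whose targets include Nr1d2 and Per3, was looked at after its values were seen: it was at 7.49 and 7.76 in KO, against 6.48 and 5.88 in WT DEN (1.36 ± 0.35, adjusted p = 0.243). It was at 7.14 to 7.92 in N750F and 6.555 to 7.48 in WT untreated livers, also above both WT DEN arrays. The circadian and growth hormone list had a median of 0.03 over 29 tested members, with 0 called. Both KO arrays lay above both WT DEN arrays in 9 of them (16.4% of all genes) and below in 5 (14.5%).

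**Figure D5:**
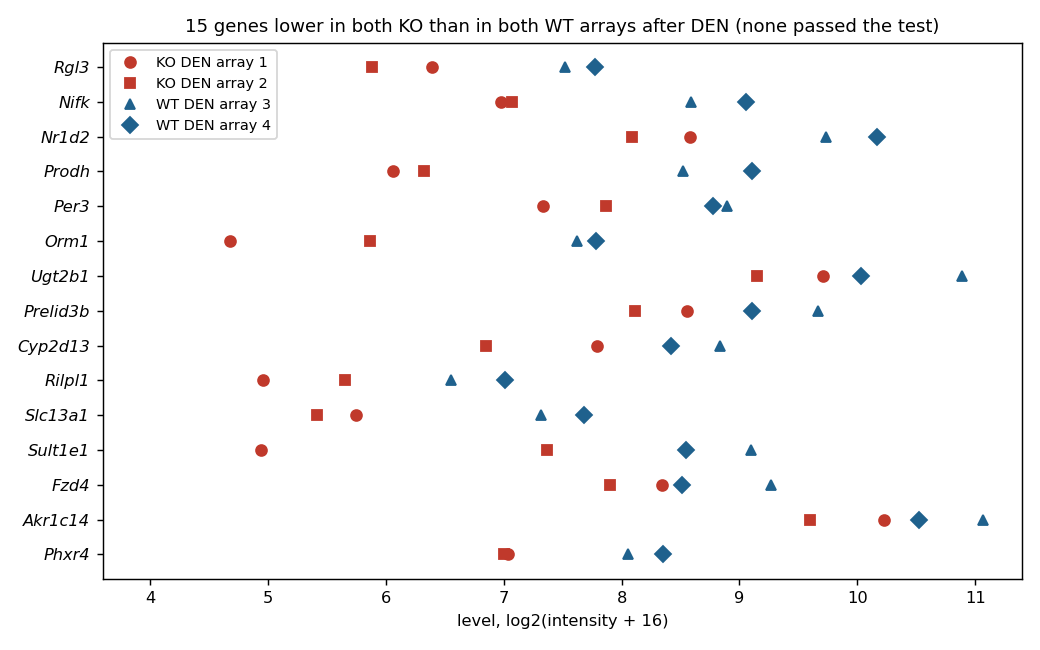
Levels of the 15 genes of smallest p with both KO arrays (red) below both WT DEN arrays (blue), in log2(intensity + 16) on the horizontal axis, with a symbol per array. None passed the test, and the widest gaps between the groups were those of Prodh, Orm1, Nifk and Slc13a1.

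Cytochromes P450 and other drug metabolism genes had a median of -0.34 over 45 tested members, with 0 called, 16 with both KO arrays below both WT DEN arrays (14.5% of all genes) and 1 above (16.4%). The median was -0.46 with KO array 1 alone and -0.23 with KO array 2 alone. Cyp2c39, a liver P450 of the Cyp2c family, was at 10.59 and 10.65 in KO, against 11.95 and 11.83 in WT DEN (-1.37 ± 0.37, adjusted p = 0.27). Cyp2c54 was at 6.93 and 7.29 in KO, against 9.97 and 8.27 in WT DEN (-2.44 ± 0.58, adjusted p = 0.197). The 2 KO arrays lay close together for both genes, and their levels were near those of WT untreated livers, at 10.76 and 10.68 for Cyp2c39 and 6.86 and 6.49 for Cyp2c54. Cyp2c38 and Cyp2f2 had differences of -1.18 ± 0.31 and -1.02 ± 0.28. Probe sets of the Cyp2c genes may share signal, since these genes are close copies. NRF2 and glutathione genes, which handle oxidants and electrophiles, had a median of -0.39 over 32 tested members, with 0 called, 11 below (14.5% of all genes) and 4 above (16.4%) both WT DEN arrays in both KO arrays. The median was -0.36 with KO array 1 alone and -0.41 with KO array 2 alone. Gstm3 and Gstm1, glutathione S-transferases of like sequence, had differences of -0.71 ± 0.25 and -0.69 ± 0.25 (adjusted p = 0.428 and 0.464). Nqo1, a quinone reductase that NRF2 induces, was at 6.94 and 6.72 in KO, against 7.69 and 6.93 in WT DEN (-1.06 ± 0.44, adjusted p = 0.525).

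The metabolic genes below were taken for small p, which favours non-overlapping groups, and none passed. They lay on both sides of WT DEN, as did 16.4% (above) and 14.5% (below) of all genes. Cyp7a1, the rate-limiting enzyme of bile acid synthesis, was at 9.10 and 8.85 in KO, against 10.48 and 10.62 in WT DEN (-1.89 ± 0.55, adjusted p = 0.309). Pdk4, the kinase that shuts off pyruvate dehydrogenase in fasting, was at 9.84 and 10.31 in KO, against 8.51 and 7.66 in WT DEN (1.84 ± 0.33, adjusted p = 0.0719). G6pc, which releases glucose from the liver, was at 11.89 and 12.15 in KO, against 10.76 and 10.39 in WT DEN (1.17 ± 0.35, adjusted p = 0.332). Thrsp, a lipogenic factor, and the hepatocyte transcription factor Onecut1 had differences of -1.97 ± 0.54 and -1.52 ± 0.37. All 11 arrays outside the WT DEN group lay below both WT DEN arrays for Cyp7a1 and Thrsp, and 10 did for Onecut1. WT untreated livers had 8.16 and 8.21 for Pdk4, below both KO arrays. Medians of the lists for fatty acid oxidation, fatty acid synthesis, glucose and amino acid metabolism, mitochondrial respiration and the unfolded protein response lay between -0.06 and 0.18, with no member called.

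Among markers of other liver cells, macrophage and Kupffer cell genes had a median of 0.63 over 23 tested members, with 0 called, 12 with both KO arrays above both WT DEN arrays (16.4% of all genes) and 1 below (14.5%). Taken apart, KO array 1 gave a median of 0.43 and KO array 2 one of 0.74. Over all 25 measured markers the mean was 7.27 and 7.60 in KO, against 6.94 and 6.98 in WT DEN. It was 7.42 to 7.73 in N750F, 7.91 and 7.57 in WT untreated and 7.14 and 6.98 in HET livers. Marco, a scavenger receptor of Kupffer cells, was at 8.70 and 9.40 in KO, against 7.37 and 7.68 in WT DEN (1.75 ± 0.51, adjusted p = 0.309). Lysozyme (Lyz2) was at 7.88 and 7.96 in KO, against 7.14 and 7.00 in WT DEN (0.82 ± 0.25, adjusted p = 0.35). Both genes had non-overlapping groups. For each of them all 11 arrays outside the WT DEN group lay above both WT DEN arrays, against 10 for Cd68, 7 for Cd5l and 5 for C1qc. The Kupffer cell marker Cd5l had overlapping groups, at 7.70 and 7.76 in KO, against 6.45 and 7.73 in WT DEN. Aspn, a matrix protein, was not in the stellate and matrix list, while Hand2, a transcription factor of stellate cells and fibroblasts, was. Both were among the genes nearest to a call. Aspn was at 7.57 and 7.80 in KO, against 5.85 and 5.32 in WT DEN (2.08 ± 0.34, adjusted p = 0.0511). Hand2 was at 6.88 and 7.09 in KO, against 5.68 and 5.78 in WT DEN (1.53 ± 0.27, adjusted p = 0.0719). The stellate and matrix list had a median of 0.33 over 24 tested members with 0 called (0.25 with KO array 1 alone and 0.42 with array 2 alone). Its mean over all 27 measured markers was 7.97 and 8.09 in KO, against 7.70 and 7.35 in WT DEN. That mean was 7.88 to 8.14 in N750F, 8.10 and 7.92 in WT untreated and 7.69 and 7.50 in HET livers. The neutrophil list had a median of 0.60 over only 6 tested members, with 0 called. Its mean over all 17 measured markers was 5.68 and 5.54 in KO, against 5.38 and 5.36 in WT DEN. N750F livers had means of 5.53 to 5.89, WT untreated livers 5.92 and 5.79, and HET livers 5.53 and 5.44. Endothelial, T, B and NK cell and cholangiocyte lists had medians of -0.07, 0.11 and 0.08.

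With KO array 2 alone, 26 genes were higher (0.174%) and muscle and squamous genes led them: Ttn by 8.02, Tpm2 by 6.54, Krt13 by 6.36, Myh8 by 5.91 and Neb by 5.59. Krt13, a keratin of squamous linings, was at 5.68 and 11.96 in KO arrays 1 and 2, against 5.81 and 6.01 in WT DEN. Only array 2 stood apart for Krt13 and Ttn. KO array 1 alone gave 85 higher genes (0.568%), of which 41 were in the G2/M or E2F list, and KO array 2 lay above both WT DEN arrays for 64 of the 85 (33.4% of all genes). Of the 26 higher genes of array 2 alone, array 1 lay above both WT DEN arrays for 11 (32.5% of all genes). The genes called in the same direction with each KO array alone were 4: Akr1c18, Pttg1, Btg1 and Tceal9. All 7 of the main calls were also called with array 1 alone. These fits share the WT DEN arrays, which favours agreement between them, so the shares over all genes are no fair baseline for it. The hepcidin gene Hamp, which controls iron uptake, and the chemokine gene Cxcl1 were among the genes that most separated the KO arrays, at 10.40 and 6.86 for Hamp in KO, against 9.97 and 10.33 in WT DEN. Cxcl1 was at 10.25 and 7.18 in KO, against 7.30 and 8.15 in WT DEN.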

How the data were processed

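Frozen livers gave total RNA that was amplified with WT-Ovation Pico and labelled with biotin, as the labels' protocols state. The authors deposited 1 linear intensity for each of 35556 probe sets on each of 13 arrays, from 0.000427 to 17831. Per the submitters' processing notes, RMA (no version) and Affymetrix Expression Console 1.1 were used, in roles that are not given. The intensities had unequal distributions and no detection flags.

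Quantile normalization over all 13 arrays was followed by log2(value + 16), a scale on which differences of dim genes come out too small. GEO's annotation listed 23410 probe sets, of which 21789 had 1 symbol, 1621 had several and named no gene, and 12146 probe sets were not listed. Symbols were updated through Entrez IDs for 21698. The probe set of highest mean stood for each of 19938 genes, and genes below the 25th percentile of mean level were left out, leaving 14953. Of 1139 entries in the gene lists, 95 had no probe set of a single symbol and 166 were left out as dim.

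A limma 3.58.1 model in R 4.3.3 (lmFit, eBayes) held the 5 groups and array batch over 13 arrays, with 7 residual degrees of freedom. Adjusted p-values are limma's, by Benjamini-Hochberg over all genes tested, with a threshold of 0.05. Fits with 1 KO array left the other out and kept the remaining arrays. The code was tested on simulated data. No 2 arrays held identical values (0 of 78 pairs).

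The arrays and gene lists were chosen with earlier results of these data known. Genes were named by rule: Rb1 and its family; up to 15 per direction by size among the called, filled by smallest p among genes with non-overlapping groups; up to 6 members of smallest p from lists with a called member or a shifted median, and up to 2 from others; and the 15 per direction that most separated the KO arrays. Predicted loci were left out. Genes outside the rule are said to be so, or serve as list examples chosen after their values were seen. Lists for squamous epithelium, Cyp2b genes and Bex, Tceal and Btg genes were added after values were seen. Promoters came from RefSeq (GRCm38.p6). Alternatives changed the normalization, offset, filter, batch term, arrays, weights, prior, probe sets and sex covariate.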

Additional observations from a re-analysis of the deposited data

Results flagged for a closer look

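Among 10 levels checked over the 5 N750F arrays, 1 sample stood far from the others: Ccnb2 was at 8.97 in N750F array 4, against 8.26 to 8.45 in the other 4 arrays. Chance alone sets a sample apart in this way in about 1 of 20 groups. N750F arrays enter the comparison of KO with WT DEN livers through the shared estimate of the spread and through the batch term.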

How the results depend on the processing

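Of the alternatives, these moved the count of genes called in KO against WT DEN livers, 7, by over 1.5 times. The count was 3 without quantile normalization, 1 with an offset of 1, 15 with an offset of 50, 2 with batch 1 arrays only, 1 with array weights, 0 with the mean Y-linked level in the model and 11 with trend and robust priors. Leaving out 1 array gave 0 (without WT DEN array 4) to 92 (without KO array 2), with 73 without WT DEN array 3, 48 without KO array 1, 1 without N750F array 2 or 3, and 2 without N750F array 5. Against WT DEN array 3 only, comparisons chosen after seeing the data, the count was 56 with KO array 1 and 11 with KO array 2. Differences that changed sign are given next, and the cause was not tested. Without 1 array, Ccna2 ran from -0.10 (without KO array 1) to 3.21, Rrm2 from -0.82 (without KO array 1) to 2.13, Ttn from -0.22 (without KO array 2) to 8.02, and Socs2 from -0.88 to 0.052 (without WT DEN array 3). KO array 2 against WT DEN array 3 gave -0.24 for Ccna2 and -0.56 for Rrm2, and KO array 1 against it gave -0.0463 for Ttn and -0.13 for Krt13. With that level in the model Xist differed by 0.013 and Kdm5d by -0.098. The median of the G2/M list stayed above 0 in every alternative run (0.55 to 2.30), as did that of the E2F list (0.35 to 1.18). With 2 arrays a group, and no detection flags, changes of dim genes cannot be judged. No paired analysis was possible because no litter or pairing is given for the KO and WT DEN arrays.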

Other observations

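Genes of the Cyp2b family and a sulfotransferase, looked at after their values were seen, split both groups in the same way. Cyp2b9, a cytochrome P450 with female-biased expression in adult mouse liver, was at 4.97 and 11.25 in KO arrays 1 and 2, against 4.81 and 11.21 in WT DEN arrays 3 and 4. Cyp2b13 was at 4.64 and 8.07 in KO, against 4.41 and 9.69 in WT DEN. Sult2a6 was at 6.00 and 9.88 in KO, against 4.61 and 10.08 in WT DEN. N750F array 3 was low as well, at 5.23 for Cyp2b9, 4.76 for Cyp2b13 and 4.78 for Sult2a6. KO array 1, WT DEN array 3 and N750F array 3 were thus the low arrays for each of the 3 genes, although KO array 1 was male and WT DEN array 3 female.

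Before any comparison, 1165 genes differed by more than 1 log2 unit between the 2 KO arrays, and 2204 between the 2 WT DEN arrays. Timm21, a mitochondrial import protein, was at 7.68 and 4.64 in KO arrays 1 and 2, against 8.01 and 8.39 in WT DEN. Pmch, the melanin-concentrating hormone precursor, was at 8.56 and 5.15 in KO, against 5.72 and 5.23 in WT DEN.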
